A study of Mus musculus with 12 samples.

Results

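The genes described here encode the subunits of the receptors for glutamate and GABA, the main excitatory and inhibitory transmitters of the brain. They were taken by symbol from the 2 gene count tables, and 41 of the 55809 symbols matched: 4 AMPA, 7 NMDA, 5 kainate and 8 metabotropic glutamate receptor genes, 15 GABA-A genes and 2 GABA-B genes. The study looked for regulators of Mc4r, the gene of the melanocortin 4 receptor, which restrains food intake. Its 12 RNA sequencing libraries of sorted mouse cells fall into 4 groups of 3. Mc4r-Cre; Ai14 mice aged 4 weeks, with no treatment, gave the TOM positive and TOM negative cells of the hypothalamus. In these mice Cre is made where Mc4r is used and switches on the red reporter tdTomato (TOM), so a cell that used the gene earlier in life is also marked. Otp fl/fl; Ai14 mice aged 26 weeks carried floxed Otp, a homeodomain transcription factor gene of hypothalamic neurons, in both groups. Their paraventricular nucleus (PVH) was dissected 12 weeks after a viral injection, and the sort took TOM positive cells where AAV-Cre had been given and GFP positive ones where AAV-GFP had. The 2 AAV groups thus differ in the virus, in the fluorescent protein used for sorting and in whether the Ai14 reporter was switched on. Whether each library is from a different animal is not in the labels, so the p-values reflect only how far these libraries spread, which may be technical.

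AMPA, NMDA and kainate receptors are tetramers that open a cation channel when glutamate binds. Metabotropic glutamate receptors signal through G proteins. GABA-A receptors are pentamers, most often of alpha, beta and gamma subunits, that let chloride pass, and GABA-B receptors are G protein-coupled pairs of Gabbr1 and Gabbr2. Neurons carry most of these receptors at synapses, and glial cells also express some of them. Subunit choice sets channel properties: the edited GluA2 subunit, from Gria2, makes AMPA receptors nearly impermeable to calcium.

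Library totals ran from 13506018 to 27827853 counts. The receptor genes together took 0.101 to 0.122% of the counts in TOM positive, 0.0471 to 0.0908% in TOM negative, 0.106 to 0.177% in AAV-Cre and 0.088 to 0.18% in AAV-GFP libraries. Mc4r was counted in 1 of 3 TOM positive libraries, with 63, 0 and 0 counts against 0 in each TOM negative library, and Otp had 12, 9 and 10 counts after AAV-Cre against 91, 102 and 38 after AAV-GFP. AAV-GFP replicate 2 stood apart within its group. Its chi-square per degree of freedom against replicates 1 and 3 was 248 and 261, against 135 between replicates 1 and 3. The receptor genes took 0.18% of the counts in it and 0.088 and 0.0989% in replicates 1 and 3. Levels are given as CPM, the counts of a gene relative to the scaled library total. Summed over the receptor genes, AAV-GFP replicates 1, 2 and 3 were at 875, 1900 and 1119 CPM. Gabbr2 alone was at 64.8, 928 and 95.1 CPM, so much of the high share in replicate 2 lay in this gene. The tables were normalized separately, so levels are compared within a table only.

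Gria2, Gria4 and Grm7 carry the clearest differences below, and their RefSeq promoter windows are shown for that reason. Each is the 250 bases before the annotated start on build GRCm38.p6, written 5′ to 3′ along the gene, with capitals on the matches to the motifs searched. Gria2 lies at chr3:80802836-80803085 on the minus strand, Gria4 at chr9:4796235-4796484 on the minus strand and Grm7 at chr6:110645262-110645511 on the plus strand.
Gria2: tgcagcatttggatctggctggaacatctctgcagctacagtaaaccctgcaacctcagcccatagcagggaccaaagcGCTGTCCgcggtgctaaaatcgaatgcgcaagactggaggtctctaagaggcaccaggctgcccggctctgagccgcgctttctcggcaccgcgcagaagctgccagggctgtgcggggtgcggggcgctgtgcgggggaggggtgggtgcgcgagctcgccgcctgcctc
Gria4: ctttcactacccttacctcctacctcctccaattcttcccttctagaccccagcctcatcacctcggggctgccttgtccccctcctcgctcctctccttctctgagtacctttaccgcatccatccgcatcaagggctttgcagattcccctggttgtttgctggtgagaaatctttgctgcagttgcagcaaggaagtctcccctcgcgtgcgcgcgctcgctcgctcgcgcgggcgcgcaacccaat
Grm7: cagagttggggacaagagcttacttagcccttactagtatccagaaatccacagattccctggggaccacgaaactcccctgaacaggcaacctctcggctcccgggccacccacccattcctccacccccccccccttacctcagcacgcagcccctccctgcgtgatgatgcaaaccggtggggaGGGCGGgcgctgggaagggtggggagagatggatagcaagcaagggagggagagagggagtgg
The motifs searched on both strands were the GC box GGGCGG, the TATA box TATAAA and the 2 parts of the RE1 element that binds the repressor REST, GGACAGC and CAGCACC. Gria2 held GCTGTCC, the other strand of GGACAGC, Grm7 held GGGCGG, and the Gria4 window held none of the 4. Of the 41 genes 28 had an entry, with 35 windows in all. GGGCGG was in 17 of these 35 windows and in 32.7% of all 32851 windows, TATAAA in 4 and 12.4%, GGACAGC in 2 (Gria2 and Grm2) and 5.28%, and CAGCACC in 2 and 5.73%. The windows of Gria2, Gria4 and Grm7 held 19, 16 and 8 CpG sites, where the median of all windows was 6, and 64.8%, 58.8% and 62% G and C against a median of 52.4%. Only exact matches were counted, so a near match is not marked and its absence is not shown. A match says only that the letters are there.

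Sorted TOM positive hypothalamic cells were compared with TOM negative cells first. Gria2 and Gria4 of the AMPA receptor, Grik2 of the kainate receptor, the metabotropic receptor gene Grm7 and Gabra2 of the GABA-A receptor were higher in TOM positive cells, by log2 fold changes of 2.37 to 3.03. Of the 41 genes 31 passed the filter on low counts. Of these 5 passed the test higher (edgeR adjusted p under 0.05) and 0 lower, or 16.1%, where 23.9% of all 15228 genes tested passed, 10.4% higher and 13.4% lower. At an unadjusted p under 0.05 with edgeR 10 were higher and 1 lower, where 36.4% of all genes lay under it. At the adjusted threshold with DESeq2 9 were higher and 1 lower. Of all 15147 genes that DESeq2 gave an adjusted p 31.7% passed, 14.4% higher and 17.4% lower. The fold change was positive for 26 and negative for 5 of the 31, with a median of 0.67 on the log2 scale against -0.02 over all genes tested. In 11 genes every TOM positive library lay above every TOM negative one (35.5%, where this held for 20.8% of all genes), and in 0 genes was the order the reverse (25.6% of all genes, so 46.4% in either direction). Without scaling factors 2204 of all genes were higher and 1532 lower, in place of 1589 and 2046, the median over all genes moved from -0.02 to 0.24, and 9 receptor genes passed, all higher. The 11 genes without overlap were the 5 above and Gria3, Grin1, Grik3, Grm3, Gabra4 and Gabrb1. Another 10 genes were too low for the test, among them Gabra5, Gabra6, Gabrd, Gabre, Gabrq, Grin2a, Grm6 and Grm8.

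Markers of several cell types differed between the same libraries, where 10.4% of all genes tested passed higher and 13.4% lower. Of 20 pan-neuronal marker genes 11 were higher, and their summed share of counts was 0.0899 to 0.115% in TOM positive and 0.0221 to 0.0247% in TOM negative libraries. For oligodendrocyte markers 14 of 15 were higher, at 9.46 to 10.6% against 1.88 to 2.44%, and for oligodendrocyte precursor markers 6 of 11, at 0.316 to 0.366% against 0.163 to 0.184%. All 15 microglial markers were lower, at 0.0526 to 0.119% against 2.58 to 2.93%. Astrocyte markers were lower in 5 of 15, at 1.5 to 2.02% against 2.36 to 2.52%, and endothelial markers in 5 of 12, at 4.5e-05 to 0.00887% against 0.0411 to 0.0589%. None of these markers was at 0 in all libraries of a group. Mitochondrial genes took 0.614 to 0.984% of the counts in TOM positive and 0.228 to 0.27% in TOM negative libraries, and 16011 to 18160 against 18453 to 19023 genes were counted. The part of these differences in the receptor results was not tested, and in such bulk samples fewer cells of a type and less RNA per cell cannot be told apart.

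**Figure D1:**
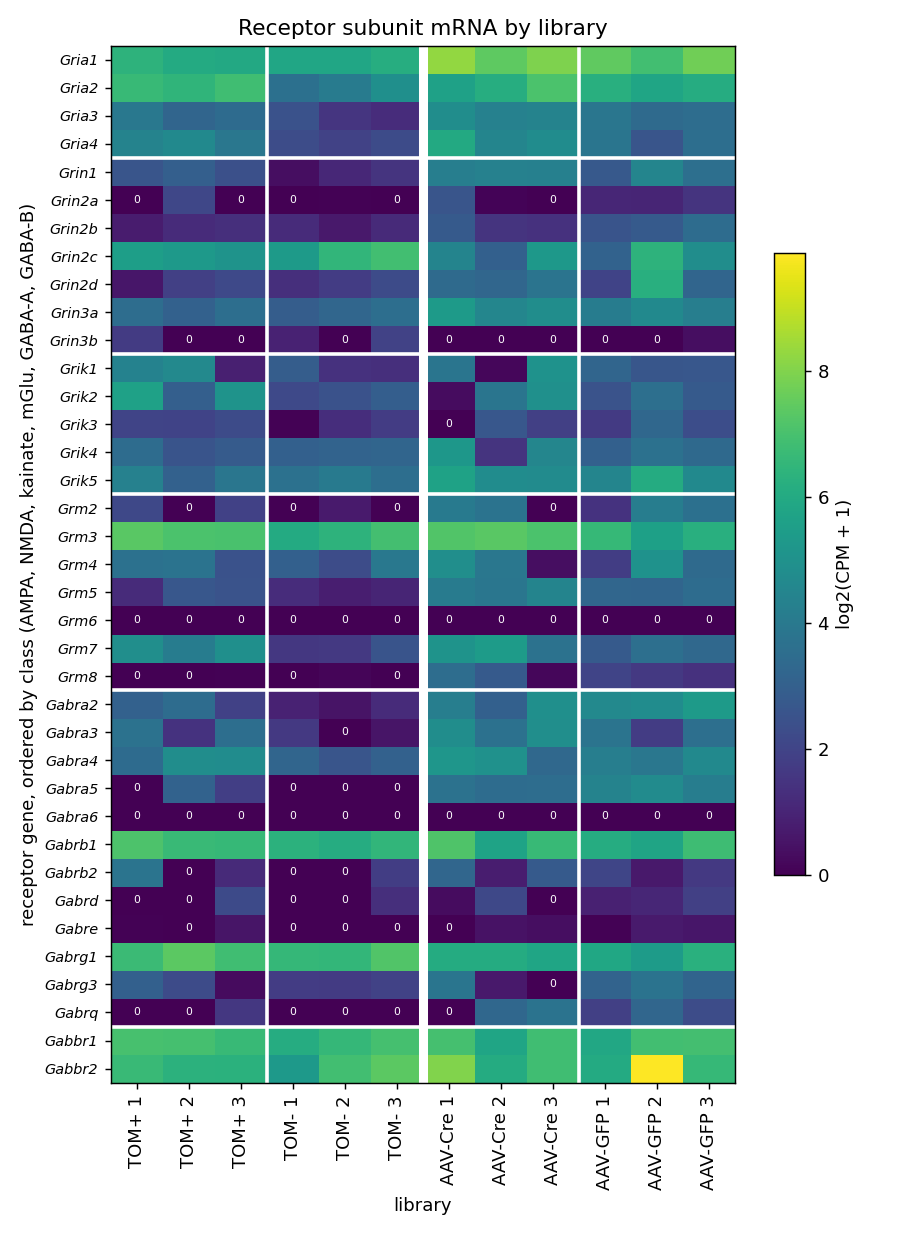
Colour gives log2(CPM + 1) of 37 receptor genes (rows, by class) in the 12 libraries (columns), and a 0 marks a gene without a count. The 2 tables on either side of the thick white line were normalized separately. Gabra6 and Grm6 had no count in any library, and Gabbr2 stands out in AAV-GFP replicate 2.

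Of the 4 AMPA receptor genes, all tested, 2 passed with edgeR, both higher, where 10.4% of all genes passed higher and 23.9% in either direction. Gria2 (chromosome 3, 80588757 to 80710142, minus strand, in the coordinates of the GENCODE vM30 annotation that the files give) was at 98.9, 85.8 and 112 CPM in TOM positive replicates 1, 2 and 3 and at 11.6, 16.3 and 29.5 CPM in the TOM negative ones. The groups were well apart, with the lowest TOM positive library above the highest TOM negative one. The log2 fold change was 2.37 ± 0.36 (SE, edgeR adjusted p = 0.00473).

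Gria4 (chromosome 9, 4417896 to 4796234, minus strand), which encodes the subunit GluA4 of fast-gating AMPA receptors, was at 20.2, 24.4 and 14.2 CPM against 3.87, 2.86 and 3.71 CPM. Again the groups did not overlap, and the log2 fold change was 2.49 ± 0.44 (edgeR adjusted p = 0.00792). Both calls were kept in each of the 6 fits with 1 library left out and in each of the 5 other settings, and without a library the largest edgeR adjusted p was 0.0352 for Gria2 and 0.0451 for Gria4. Gria3 was at 14.5, 8.35 and 9.88 CPM against 4.53, 1.89 and 1.38 CPM, apart in the same direction, and did not pass (log2 fold change 2.07 ± 0.66, edgeR adjusted p = 0.0613). Gria1, which encodes GluA1, was at 81.1, 63.8 and 60.7 CPM against 56, 56.1 and 70.3 CPM. Its groups overlapped (log2 fold change 0.17 ± 0.21, edgeR adjusted p = 0.601).

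Because Gria1 overlapped while Gria2 and Gria4 differed, the make-up of AMPA receptor mRNA was not alike in the 2 sorts. Shares were taken within a library from CPM per kilobase of exon. Gria1 made up 54.9, 50.8 and 49% of AMPA subunit mRNA in the TOM positive libraries and 83.6, 84.6 and 81.6% in the TOM negative ones, or 51.6% ± 3.02 against 83.3% ± 1.53 (SD, n = 3 each). Gria2 made up 29.2% ± 5.1 against 9.85% ± 3.29, Gria4 14.2% ± 3.95 against 4.6% ± 0.813 and Gria3 4.99% ± 0.97 against 2.29% ± 1.65. The libraries of the 2 groups did not overlap in the shares of Gria1, Gria2 and Gria4. The shares within a library depend on each other, so these are not separate results. In CPM 46.4% of all genes tested did not overlap, while Gria1 overlapped. With 3 libraries a group an exact permutation test cannot go below p = 0.1, so no test of a share is given.

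The exon length used is that of all exons of a gene merged, and Gria2, at 15548 bases, has more than any other AMPA gene. Without division by length, an alternative added after seeing the data, Gria1 made up 34.5% ± 3.48 against 71.2% ± 3.59 and Gria2 50% ± 5.97 against 21.5% ± 6.42. The order of Gria1 and Gria2 in TOM positive cells thus depends on the length used, while the difference between the sorts had the same direction both ways.

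**Figure D2:**
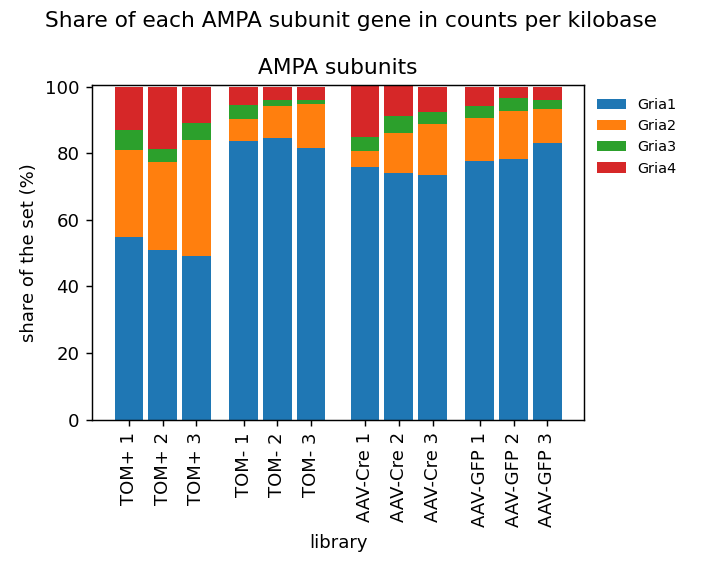
Stacked bars give the share (%) of each AMPA gene, from CPM per kilobase, in each of the 12 libraries. Gria1 runs from 49 to 54.9% in the TOM positive libraries and from 73.5 to 84.6% in the others.

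Metabotropic glutamate receptor mRNA was mostly Grm3, a group II receptor gene also expressed by astrocytes. Grm3 was at 159, 134 and 130 CPM in TOM positive and 64, 82.1 and 119 CPM in TOM negative libraries, 87.3% ± 1.71 and 93.4% ± 1.96 of the class by length. Its groups did not overlap, but the difference did not pass (log2 fold change 0.67 ± 0.25, edgeR adjusted p = 0.0922). Grm7 (chromosome 6, 110622542 to 111544191, plus strand), a presynaptic group III receptor gene, was at 28, 16.5 and 29.1 CPM against 2.01, 2.08 and 4.9 CPM. Each TOM positive library was well above the highest TOM negative one. The log2 fold change of Grm7 was 3.03 ± 0.54 (edgeR adjusted p = 0.0083), and the call was kept in the 5 other settings and in each fit that dropped a library, where the largest edgeR adjusted p was 0.0466. Grm7 made up 7.86% ± 2.15 of the class in TOM positive libraries and 1.58% ± 0.363 in TOM negative ones.

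The remaining metabotropic genes were low or uneven. Grm5, a group I receptor gene, was at 1.33, 5.38 and 4.79 CPM against 1.36, 0.775 and 1.05 CPM, and Grm4, of group III, at 11.8, 12.4 and 4.56 CPM against 7.14, 3.87 and 14.4 CPM. Both overlapped between the groups and neither passed (edgeR adjusted p of 0.17 and 0.876). Grm2 was counted in 2 TOM positive libraries and 1 TOM negative library and did not pass (edgeR adjusted p = 0.349). Grm8 had 0, 0 and 1 counts against 0, 2 and 0.

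**Figure D3:**
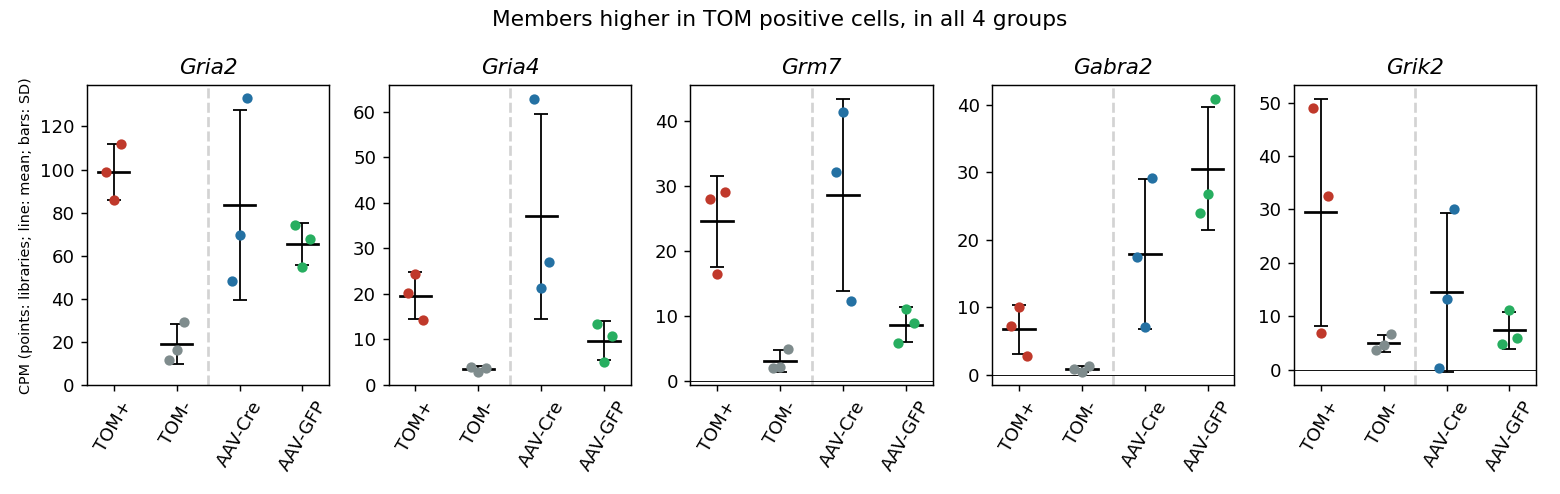
Points are the CPM of single libraries, lines group means and bars SD, for the 5 genes that passed in the TOM comparison. TOM positive libraries lie above TOM negative ones in all 5, and the AAV groups, from a table normalized separately, overlap in Gria2, Grik2 and Gabra2.

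Kainate receptor genes were uneven between libraries. Grik2 (chromosome 10, 48970929 to 49664862, minus strand), a pore-forming subunit gene, was at 49.1, 6.82 and 32.5 CPM against 3.57, 4.6 and 6.65 CPM. TOM positive replicate 2 lay just above the highest TOM negative library, and replicates 1 and 3 lay far above it. The log2 fold change was 2.57 ± 0.71 (edgeR adjusted p = 0.0376). This call was kept in 1 of 6 fits with 1 library left out, the one without TOM positive replicate 2, and reached an edgeR adjusted p of 0.135 in the others. Grik3 was at 3.03, 2.96 and 3.76 CPM against 0.0503, 1.45 and 2.34 CPM, apart but not past the test (log2 fold change 1.34 ± 1.18, edgeR adjusted p = 0.465).

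Grik5, a subunit gene that forms channels only with Grik1 to Grik3, was the highest kainate gene per length in the TOM table on average. It was at 19.4, 7.36 and 13.7 CPM against 11.7, 15.3 and 10.7 CPM, with overlapping groups (log2 fold change 0.10 ± 0.47, edgeR adjusted p = 0.898). Grik4 was at 4.91 to 10.1 CPM against 7.04 to 8.3 CPM, and Grik1 at 19.7, 24 and 0.832 CPM against 6.44, 1.65 and 1.51 CPM. Neither passed.

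None of the 6 tested NMDA receptor genes passed with edgeR, where 23.9% of all genes did. At an unadjusted p under 0.05 with edgeR 1 was higher and 1 lower, where 36.4% of all genes lay under it. With DESeq2 Grin1 passed higher and Grin2c lower, where 31.7% of all genes passed. Grin1, the subunit that every NMDA receptor needs, was at 5.13, 6.99 and 4.29 CPM in TOM positive and 0.302, 1.16 and 1.79 CPM in TOM negative libraries. Its groups did not overlap, and the log2 fold change of 2.33 ± 0.87 did not pass (edgeR adjusted p = 0.0978). Grin2c went the other way, at 44.6, 38.6 and 32.3 CPM against 40.6, 88.5 and 116 CPM. It encodes GluN2C, and its groups overlapped through TOM negative replicate 1 (log2 fold change -1.09 ± 0.38, edgeR adjusted p = 0.0786). Without that library the call was gained. Grin2c made up 94.3% ± 3.96 of the 4 GluN2 genes per length in TOM positive libraries and 97.3% ± 0.617 in TOM negative ones.

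The GluN2A and GluN2B genes, the main GluN2 subunits of forebrain synapses, were near the floor. Grin2b was at 0.667 to 1.5 CPM against 0.581 to 1.31 CPM. Grin2a had 96 counts in TOM positive replicate 2 and 0 in replicates 1 and 3, against 0, 1 and 0 counts, a ratio of summed scaled counts of 75.9 with an exact 95% interval of 13.3 to 3030 that covers counting error only. Grin2d, Grin3a and Grin3b overlapped between the groups and did not pass, with log2 fold changes of -0.19, 0.15 and -0.71.

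**Figure D4:**
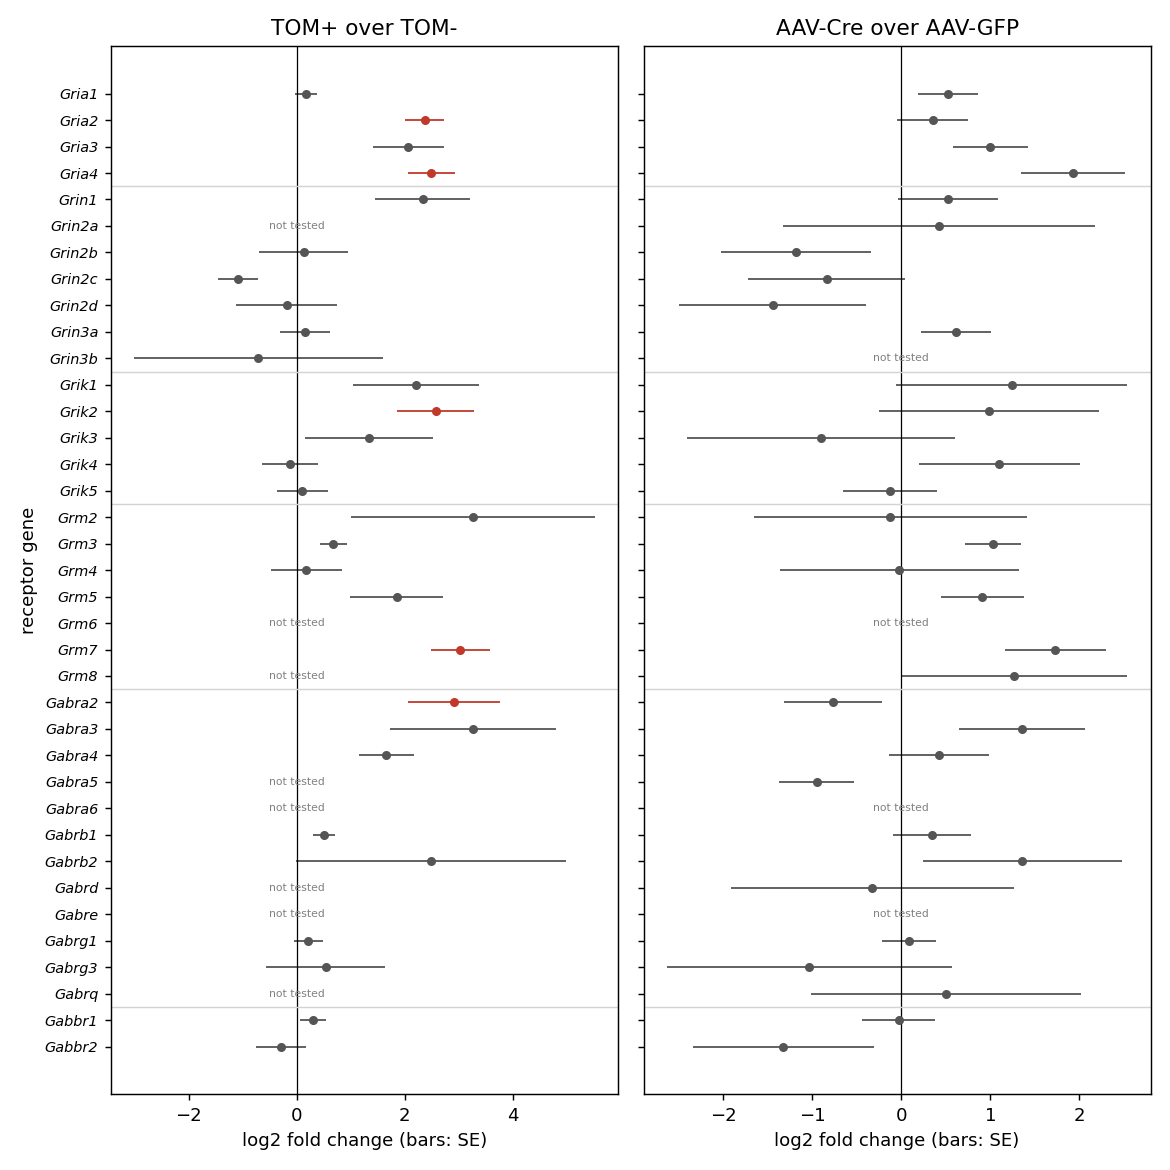
Points are log2 fold changes with SE bars for 37 receptor genes, TOM positive over TOM negative on one side and AAV-Cre over AAV-GFP on the other, and red marks an edgeR adjusted p under 0.05. The 5 red points are all in the TOM comparison and right of 0; genes below the count filter are written as not tested.

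Among the GABA-A genes 1 of 9 tested passed with edgeR (11.1%, higher, where 10.4% of all genes passed higher and 23.9% in either direction). Gabra2 and Gabra4 passed with DESeq2, where 14.4% of all genes passed higher and 31.7% in either direction. Gabra2 (chromosome 5, 71114940 to 71253192, minus strand), which encodes the alpha2 subunit, was at 7.29, 10.1 and 2.79 CPM in TOM positive and 0.905, 0.436 and 1.33 CPM in TOM negative libraries. The groups did not overlap, with TOM positive replicate 3 closest to the TOM negative libraries. The log2 fold change was 2.91 ± 0.85 (edgeR adjusted p = 0.0456), and among the 6 fits that dropped a library the call was kept only without TOM positive replicate 3. The edgeR adjusted p reached 0.148 without TOM negative replicate 2, and the call was also lost without the count filter.

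Gabra4, the alpha4 gene, was at 10, 27.4 and 26.9 CPM against 8.2, 4.99 and 7.24 CPM, apart but just short of the threshold (log2 fold change 1.66 ± 0.51, edgeR adjusted p = 0.0524). Gabrb1, the beta1 gene, was at 139, 102 and 96.2 CPM against 80.2, 67.7 and 88.9 CPM, also apart and not past it (log2 fold change 0.51 ± 0.21, edgeR adjusted p = 0.123). Gabrg1, the gamma1 gene and the highest GABA-A gene per length in this table, was at 104, 166 and 113 CPM against 94.6, 90.4 and 146 CPM. Its groups overlapped (log2 fold change 0.21 ± 0.27, edgeR adjusted p = 0.622).

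Some GABA-A genes were counted in TOM positive cells only. Gabra5, the alpha5 gene, had 0, 220 and 78 counts against 0 in each TOM negative library. Set against a floor of 3 counts over the TOM negative group, Gabra5 was at least 78.5-fold higher, by counting error alone, and at least 32.7-fold higher without TOM positive replicate 2. With all libraries Gabra5 was below the count filter, so the main fit gives no test of it. It entered the fit without TOM positive replicate 1, where it had 0 counts, and passed higher there. Without a count filter it did not pass. Gabrq, the theta gene, had 0, 0 and 60 counts against 0 in each (at least 15.8-fold higher), and Gabre, the epsilon gene, 1, 0 and 14 against 0 in each (at least 3.95-fold higher). Both bounds rest on TOM positive replicate 3, without which Gabrq had 0 counts and Gabre 1 count. Gabrd, the delta gene of extrasynaptic receptors, had 0, 0 and 108 counts against 0, 0 and 33. In each sort 1 library thus held all counts of Gabrd.

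GABA-B genes overlapped between the sorts. Gabbr1 was at 125, 123 and 100 CPM against 67.2, 94 and 122 CPM, and Gabbr2 at 102, 79.1 and 78.5 CPM against 38.7, 116 and 163 CPM. Their log2 fold changes were 0.30 ± 0.24 and -0.29 ± 0.46, with edgeR adjusted p of 0.432 and 0.696. TOM negative replicate 3 was the highest and replicate 1 the lowest of all 6 libraries for Gabbr2.

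Many GABA-A genes lie in clusters, which allowed a reading by position. In the coordinates of the files, Gabrg1, Gabra2, Gabra4 and Gabrb1 lie together on chromosome 5 (70908390 to 72306380) and Gabre, Gabra3 and Gabrq on chromosome X (71299605 to 71886208). Per length, the chromosome 5 cluster held 81.4% ± 7.97 of the mRNA of the 15 GABA-A genes in TOM positive and 92.7% ± 2 in TOM negative cells, with ranges of 75.3 to 90.4% and 90.6 to 94.6%. In PVH cells it held 49.6% ± 3.9 after AAV-Cre and 48.8% ± 6.7 after AAV-GFP. The chromosome X cluster held 6.68% ± 4.78, 0.998% ± 1.39, 16.6% ± 5.6 and 8.02% ± 1.38 in TOM positive, TOM negative, AAV-Cre and AAV-GFP cells. Its ranges after AAV-Cre and AAV-GFP, 12.6 to 23% and 6.88 to 9.55%, did not overlap. Singly, Gabra3, Gabre and Gabrq each overlapped in CPM between the AAV groups, and Gabrq had 0 counts in AAV-Cre replicate 1. Of all genes tested in that comparison 28.5% did not overlap in CPM. Ages and dissections differ between the tables, so this is a description.

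Genes that work with these receptors were read from 3 further lists. Of 36 tested genes of auxiliary subunits and scaffold proteins 7 rose and 1 fell in TOM positive cells (10.4% and 13.4% of all genes did so), with a median log2 fold change of 1.06. Cnih2, an auxiliary subunit of AMPA receptors, averaged 80.8 ± 13.1 CPM against 18.8 ± 4.39 CPM (log2 fold change 2.10 ± 0.26, edgeR adjusted p = 0.00192). Dlg1, the scaffold protein SAP97, averaged 60.5 ± 13.9 CPM against 10.8 ± 4.6 CPM (log2 fold change 2.48 ± 0.37, edgeR adjusted p = 0.00429). Both calls were kept in each of the 6 fits with 1 library left out. Cacng2, the AMPA auxiliary subunit stargazin, had 49, 141 and 99 counts against 6, 0 and 4. The scaffold genes Shank1, Homer2 and Dlgap1 and the synaptic adhesion gene Nlgn1 rose by log2 fold changes of 2.53, 1.61, 1.13 and 2.15. These 4 and Cacng2 lost their calls in 3 to 6 of the 6 fits with 1 library left out. The gene that fell was Kctd12, an auxiliary subunit of GABA-B receptors, at 5.33 ± 4.02 CPM against 49.6 ± 7.88 CPM (log2 fold change -3.21 ± 0.76, edgeR adjusted p = 0.0218). Its call was lost without any 1 of the TOM negative libraries.

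Among 12 tested genes of transmitter synthesis and transport 4 rose and 3 fell, with a median log2 fold change of 0.44. Of all genes tested 10.4% rose and 13.4% fell. Slc17a6, a vesicular glutamate transporter gene, had 132, 126 and 129 counts against 0, 0 and 1. Abat, which degrades GABA, and Slc1a1, a glutamate transporter gene, rose by log2 fold changes of 0.98 and 1.61, calls kept in 2 and 5 of the 6 fits with 1 library left out. Glul, the glutamine synthetase gene of glia, averaged 544 ± 103 CPM against 1209 ± 208 CPM, and its fall was kept in each of the 6 fits with 1 library left out. The GABA transporter gene Slc6a11 fell with a log2 fold change of -1.36, a call kept in 1 of those 6 fits and lost with unscaled totals and with the replicate block. Slc6a13, which also transports GABA, was at 0 counts in all TOM positive libraries against 32, 114 and 65 counts, and its call was lost without TOM negative replicate 2 and with the block. Of 4 tested genes of other ligand-gated receptors 1 rose, the glycine receptor beta subunit gene Glrb, at 326 ± 44.2 CPM against 67.4 ± 8.75 CPM (log2 fold change 2.28 ± 0.18, edgeR adjusted p = 0.000354).

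The second comparison asked how PVH cells sorted after AAV-Cre differed from those sorted after AAV-GFP. Of the 41 genes 37 were tested, and 0 passed with edgeR, where 2.6% of all 15408 genes tested did (0.63% higher and 1.97% lower). At an unadjusted p under 0.05 with edgeR 4 were higher and 0 lower (18.8% of all genes lay under it). With DESeq2 3 passed, all higher, and 2 were given no adjusted p. Of the 15163 genes given one 10.1% passed, 3.71% higher and 6.39% lower. The fold change was positive for 23 and negative for 14, with a median of 0.42 on the log2 scale against -0.16 over all genes. Every AAV-Cre library lay above every AAV-GFP one for Gria3, Gria4, Grm3, Grm5 and Grm7 (13.5%, where 9.85% of all genes did so), and below for Gabra5 (2.7%, against 18.6%, with 28.5% of all genes apart in either direction). Gabra6, Gabre, Grin3b and Grm6 were not tested.

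Of the 4 genes that edgeR put under an unadjusted p of 0.05, Gria4 was at 62.8, 21.3 and 26.9 CPM after AAV-Cre and 13.3, 5.07 and 10.8 CPM after AAV-GFP. AAV-Cre replicate 1 was far above the rest, and the log2 fold change of 1.93 ± 0.58 did not pass with edgeR (edgeR adjusted p = 0.127). Grm7 was at 32.2, 41.3 and 12.3 CPM against 5.84, 11.1 and 8.94 CPM, with AAV-Cre replicate 3 close to the AAV-GFP libraries (log2 fold change 1.73 ± 0.56, edgeR adjusted p = 0.154). Grm3 was at 144, 162 and 134 CPM against 95.8, 47.2 and 72.6 CPM (log2 fold change 1.03 ± 0.32, edgeR adjusted p = 0.134). These 3 genes were those that passed with DESeq2. Gria3, the other gene, was at 27.6, 19.1 and 20.2 CPM against 13.5, 9.49 and 10.4 CPM (log2 fold change 1.00 ± 0.42, edgeR adjusted p = 0.259).

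Gria1 and Gria2 overlapped between the AAV groups. Gria1 was at 304, 169 and 249 CPM against 175, 117 and 210 CPM, and was the highest AMPA gene per length in both. Gria2 was at 48.5, 69.8 and 133 CPM against 74.3, 55 and 67.6 CPM, with AAV-Cre replicate 3 high and replicate 1 low. By length Gria1 made up 74.5% ± 1.31 of AMPA subunit mRNA after AAV-Cre and 79.8% ± 2.85 after AAV-GFP, Gria2 10.6% ± 5.38 against 12.5% ± 2.02 and Gria4 10.5% ± 3.98 against 4.33% ± 1.22. The share of Gria4 was 7.59 to 15.1% after AAV-Cre and 3.27 to 5.66% after AAV-GFP, without overlap. That of Gria1, at 73.5 to 76% against 77.8 to 83%, did not overlap either, and that of Gria2 overlapped. These shares also depend on each other, and in CPM Gria1 overlapped. Of all genes tested 28.5% did not overlap in CPM.

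Gabra5 was the GABA-A gene whose AAV groups did not overlap. It was at 12.2, 10.1 and 10.5 CPM after AAV-Cre and 20.3, 25.9 and 17 CPM after AAV-GFP (log2 fold change -0.95 ± 0.42, edgeR adjusted p = 0.281). Within the alpha genes, per length, it made up 19.4% ± 0.98 against 38.8% ± 10.9, and Gabra3, the alpha3 gene, 29.4% ± 10.4 against 11.9% ± 7.7. Gabra3 was at 27.2, 11.7 and 28 CPM against 12.7, 2.39 and 11 CPM, where AAV-Cre replicate 2 fell within the AAV-GFP range. Gabra2, at 17.5, 7.05 and 29.2 CPM against 24, 26.7 and 41 CPM, overlapped (log2 fold change -0.77 ± 0.55, edgeR adjusted p = 0.519).

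The remaining receptor genes overlapped between the AAV groups, apart from Grm5, which was at 16.4, 13.6 and 21 CPM against 8.53, 8.33 and 10.2 CPM and did not pass (log2 fold change 0.91 ± 0.46, edgeR adjusted p = 0.345). Grin1 was at 17.4, 19.2 and 18.5 CPM after AAV-Cre, closely spaced, and at 5.74, 21.4 and 11.3 CPM after AAV-GFP (log2 fold change 0.52 ± 0.56, edgeR adjusted p = 0.69). Grin3a, an NMDA subunit gene that lowers calcium entry, was at 40.8, 21.9 and 27.5 CPM against 16.5, 24.9 and 17.5 CPM. Gabrg1 was at 66, 66 and 53.9 CPM against 58, 42 and 75.5 CPM, and made up 72.9% ± 9.17 of the gamma genes per length after AAV-Cre and 61.1% ± 0.897 after AAV-GFP. Gabrb1 was at 140, 51.6 and 99.7 CPM against 67, 52.8 and 110 CPM. Neither these genes nor Grik1 to Grik5, Grm2, Grm4 and Grm8 passed.

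In AAV-GFP replicate 2 several genes were far above the other libraries of its group. Gabbr2 was at 928 CPM there, against 64.8 and 95.1 CPM in replicates 1 and 3 and 257, 65.5 and 113 CPM after AAV-Cre. Its log2 fold change of -1.32 ± 1.01 became 0.85 without that library. Grin2d was at 72.7 CPM against 2.95 and 8.3 CPM, and its log2 fold change of -1.45 ± 1.05 became 0.86. Grin2c was at 81.2 CPM against 7.55 and 27.7 CPM, and its log2 fold change of -0.84 ± 0.88 became 0.29. With edgeR none of the 3 passed with or without it. Gabbr1, the partner of Gabbr2, was not high there, at 118 CPM against 58.8 and 118 CPM.

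Counts of some receptor genes were uneven between the libraries of a group. The genes read were those tested with at least 10 counts in at least 1 library of a group. The highest library was at least 10 times the lowest in 13 of 37 receptor genes after AAV-Cre (35.1%, against 22% of all genes). After AAV-GFP this held for 5 of 37 (13.5%, against 4.2%). The 5 after AAV-GFP were Gabbr2, Grin2c, Grin2d, Grm2 and Grm4. The count was 0 without AAV-GFP replicate 2, 0 without replicate 1 and 5 without replicate 3 (1.1%, 1.59% and 3.22% of all genes). A range over fewer libraries can only be the same or narrower. After AAV-Cre it was 7 without replicate 1 (10.3% of all genes) and 9 without replicate 2 or 3 (15.5% and 15% of all genes). In TOM positive cells this held for 6 of 31 (19.4%, against 17.9%). In TOM negative cells it held for 5 of 31 (16.1%, against 8.59%), or 2 without TOM negative replicate 2 (4.76% of all genes). Without TOM negative replicate 1 or 3 it held for 4 (4.92% and 4.82% of all genes). Without TOM positive replicate 2 or 3 it held for 4 in TOM positive cells (8.81% and 12% of all genes), and without replicate 1 for 5 (12.6%). Grik2 after AAV-Cre had 4, 195 and 437 counts, Grm4 460, 208 and 4, and Gabrg3 212, 9 and 0. Grm2 and Gabrq had 0 counts in 1 AAV-Cre library and at least 130 in the others. For kainate genes after AAV-Cre the 10-fold range held in 4 of 5, where it held for 22% of all genes. Grik1 had 210, 2 and 456 counts, Grik3 0, 80 and 39 and Grik4 581, 27 and 324.

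Markers also differed between the AAV groups, where 0.63% of all genes tested passed higher and 1.97% lower. Oligodendrocyte markers took 5.64 to 6.88% of counts after AAV-Cre and 1.44 to 4.85% after AAV-GFP, with 4 of 15 higher, where 1.44% was AAV-GFP replicate 2 and the others were at 3.91 and 4.85%. Microglial markers took 0.642 to 1.18% against 0.279 to 0.482%, with 1 of 15 higher. Endothelial markers took 0.0037 to 0.00503% against 0.0299 to 0.0464%, with 2 of 11 tested lower and 3 of 12 at 0 in all AAV-Cre libraries. Precursor markers, at 0.169 to 0.256% against 0.0734 to 0.25%, astrocyte markers, at 1.21 to 1.65% against 1.21 to 2.49%, and pan-neuronal markers, at 0.356 to 0.43% against 0.255 to 0.372%, had no gene past the threshold. Mitochondrial genes took 1.64 to 2.33% of the counts after AAV-Cre and 1.44 to 7.2% after AAV-GFP, where replicate 3 was the highest and the others were at 1.44 and 2.63%. After AAV-Cre 14747 to 16988 genes were counted, and after AAV-GFP 20778 to 23902, without overlap. The part of these differences in the receptor values was not tested. Of the partner genes 0 of 15 transmitter genes, 0 of 37 auxiliary and scaffold genes and 0 of 5 other receptor genes passed with edgeR. Of all genes tested 2.6% did.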

How the data were processed

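Gene expression was measured by RNA sequencing of sorted mouse cells in 12 libraries. Per the labels' protocols, sorted cells were collected in Trizol and a SMART-Seq mRNA kit was used for the libraries; molecular identifiers are not described, so counts can include PCR copies, and bounds and intervals cover counting error only. The deposited values are whole-number counts per gene symbol, not normalized. The authors counted the AAV libraries with featureCounts 2.0.1, per the file headers, without strand and on the vM30 annotation, and gene length is the deposited count of exon bases, used here for both tables. How the TOM table was counted is not given in the sources used here. Genes that overlap another gene's exons did so over at most 0.99% of their bases.

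The 2 comparisons were fitted apart, 6 libraries each, with edgeR 4.0.16 (R 4.3.3): TMM scaling, filterByExpr with a minimum count of 10, and the two-sided quasi-likelihood test, adjusted by Benjamini-Hochberg over all genes tested, with a threshold of 0.05. The SE comes from the F statistic. CPM used TMM-scaled totals. No 2 libraries of a group agreed within sampling noise. The receptor genes and the lists were chosen with earlier results of these data known. Genes are given with every library where they passed, had 0 counts in 1 group, led their class per length, or did not overlap with a log2 fold change of at least 1; further members are described to complete a class. Of the partner lists, genes that passed are named. Some genes that these rules take are not reported here. Alternatives were RLE size factors, unscaled totals, no count filter, a replicate block, DESeq2 1.42.0 and leaving out each library. The edgeR steps were also run on simulated data in which only better counted genes were changed. Lower genes were thus not covered, and the outcome is not reported here.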

Additional observations from a re-analysis of the deposited data

How the results depend on the processing

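Gria2, Gria4 and Grm7 passed in the TOM comparison in every setting tried. The count of receptor genes that passed there was 5, and it was 5 with RLE size factors, 4 without a count filter, 9 with unscaled totals, 10 with DESeq2 and 3 to 5 with 1 library left out, the lowest without TOM negative replicate 2. Over all genes 3635 passed, and 1511 to 3547 with 1 library left out, again lowest without TOM negative replicate 2. In the AAV comparison 400 of all genes passed, 712 without a count filter and 1531 with DESeq2. With 1 library left out 0 to 296 passed: 0 without AAV-GFP replicate 1 or 3, 2 without AAV-GFP replicate 2 and 122 without AAV-Cre replicate 2. Receptor genes that passed there were 0 in each edgeR setting, a range of 0 to 0 with 1 library left out, and 3 with DESeq2.

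No shared deviation of same-numbered libraries was seen. Their deviations from the group means correlated at -0.0313, -0.0139 and 0.0246 in the TOM table and at -0.0702, -0.07 and -0.0647 in the AAV table. With 3 libraries a group these values cannot exclude that equal replicate numbers mark paired samples. With the replicate block 1987 of all genes and 3 receptor genes passed in the TOM comparison, where Grik2 and Gabra2 were lost, and 0 and 0 in the AAV comparison. Under the block the log2 fold changes in the AAV comparison turned to -0.69 for Gabrq, -0.19 for Grik2 and 0.0020 for Grik5.

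Other log2 fold changes that turned sign were those of genes that did not pass, and the cause was not tested. In the TOM comparison leaving out 1 library gave -0.70 to 0.14 for Gabbr2, -0.029 to 0.44 for Gabrg1 and -0.25 to 0.40 for Grik5, which was also -0.024 without TOM negative replicate 3, and -0.67 to 0.28 for Grin2d, which was 0.055 with unscaled totals. In the AAV comparison it gave -2.03 to 0.85 for Gabbr2, -0.12 to 0.40 for Gabrg1, -1.48 to 0.29 for Grin2c, -1.89 to 0.86 for Grin2d, -0.20 to 1.12 for Gabrq, -0.16 to 0.62 for Gria2, -0.13 to 1.56 for Grik2 and -0.52 to 0.57 for Grik5. Grik5 was 0.029 with unscaled totals, and 0.016 and 0.031 without AAV-Cre replicates 2 and 3. Of the partner genes, in the AAV comparison, Slc1a1 ran from -0.69 to 0.98, the lowest without AAV-Cre replicate 3. Low counts limit Gabra5, Gabre, Gabrq, Gabrd and Grin2a in the TOM comparison, where 1 or 2 libraries hold nearly all counts. With 3 libraries a group and 1 left out, the fit rests on 2 libraries in one group.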
